A study of Mus musculus with 8 samples.

Results

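The 39 Hox genes of the A, B, C and D clusters were described in the superior cervical ganglion, a sympathetic ganglion high in the neck. They are all rows of the count table whose symbol is Hox followed by the cluster letter and the paralog number, 39 of 23827 rows. Polyadenylated RNA was sequenced from ganglion pairs of 8 mice of the C57Bl6/n strain on postnatal day 1, 1 library per animal. The 4 control animals had the genotype KIF1Bb fl/fl :DBHcre -/-, that is, a floxed allele of the kinesin isoform Kif1b beta without Cre. The 4 conditional knockout (cKO) animals had KIF1Bb fl/fl :DBHcre +/-, the same allele with Cre driven by Dbh, the gene for dopamine beta-hydroxylase, so that recombination is limited to cells that use or have used this promoter. Cells of the ganglion that have never used this promoter keep an intact allele. Glia, vessel cells and fibroblasts contribute RNA to every library, and recombination in each cell type was not measured here.

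Hox genes encode homeodomain transcription factors that lie in 4 clusters in mammals. Within a cluster they are switched on in the order of their chromosomal positions, low paralog numbers in anterior tissue and high ones only toward the tail, and many cells keep this positional code after development. Genes of the same paralog number in different clusters arose by duplication and are called a paralog group. Neurons and glia of the superior cervical ganglion come from the neural crest of the hindbrain and neck border, whereas its vessels and much of its connective tissue can have other origins. HOX proteins bind DNA together with cofactors of the PBX, MEIS and PKNOX families, and their genes are set by retinoic acid and by Polycomb and trithorax chromatin regulators.

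Total counts lay between 16214912 and 18114418 per library, and TMM factors, which rescale library sizes, between 0.967 and 1.03. Levels are given as CPM, the usual counts-per-million scale after this rescaling. Kif1b, the targeted gene, was at 1224 ± 222 in the controls and at 260 ± 52.7 in the cKO libraries, in CPM (SD, n = 4 each). Sympathetic neuron markers such as Th and Dbh were present in all 8 libraries, and the summed level of 14 such genes was 19927 to 20589 CPM in control and 16827 to 17770 CPM in cKO libraries. Control 1 and cKO 1 held more RNA of muscle and cartilage genes (summed 85.2 and 223 CPM) than the other 6 libraries (18.9 to 31.5 CPM), and more of red blood cell genes (45 and 77.2 CPM, against 3.94 to 9.91 CPM). The sum of 12 fibroblast genes was 5905 to 7607 CPM in control and 8169 to 12019.8 CPM in cKO libraries, and that of 12 blood vessel genes 304 to 378 and 489 to 585 CPM.

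The promoters of 3 genes of paralog group 4 are shown because this group carried most of the Hox RNA and its members behaved differently: Hoxc4 was by far the most abundant Hox gene, Hoxd4 was steady at a low level, and Hoxb4 varied between libraries. Each window runs from 250 bases before to 50 bases after the RefSeq start on the plus strand of GRCm38.p6, 5′ to 3′: chr11:96318017-96318316 for Hoxb4, chr15:103034145-103034444 for Hoxc4 and chr2:74721728-74722027 for Hoxd4. The Hoxc4 and Hoxd4 windows are set at inner RefSeq starts, since the gene models in GENCODE begin at 103018934 and 74711929. Capitals mark matches to AGGTCA, a half-site bound by nuclear receptors such as those for retinoic acid, here on the strand that reads TGACCT.
Hoxb4: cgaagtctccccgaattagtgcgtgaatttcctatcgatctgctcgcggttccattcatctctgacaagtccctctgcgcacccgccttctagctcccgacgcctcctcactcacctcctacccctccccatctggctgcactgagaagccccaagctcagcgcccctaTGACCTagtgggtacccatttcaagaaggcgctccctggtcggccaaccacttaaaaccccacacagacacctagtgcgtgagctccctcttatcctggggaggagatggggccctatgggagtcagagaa
Hoxc4: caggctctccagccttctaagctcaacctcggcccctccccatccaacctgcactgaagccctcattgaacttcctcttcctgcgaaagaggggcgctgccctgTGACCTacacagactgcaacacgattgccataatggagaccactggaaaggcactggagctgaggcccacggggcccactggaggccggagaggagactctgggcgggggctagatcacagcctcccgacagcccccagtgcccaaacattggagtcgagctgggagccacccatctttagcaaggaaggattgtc
Hoxd4: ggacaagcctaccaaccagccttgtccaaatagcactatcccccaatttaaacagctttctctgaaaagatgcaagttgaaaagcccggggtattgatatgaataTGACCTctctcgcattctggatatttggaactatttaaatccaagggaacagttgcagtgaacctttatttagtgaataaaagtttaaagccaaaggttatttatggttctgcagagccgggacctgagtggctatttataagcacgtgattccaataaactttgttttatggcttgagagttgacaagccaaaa

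All 3 windows held AGGTCA once, at base 170 of the Hoxb4 window, 105 of the Hoxc4 window and 106 of the Hoxd4 window. Of 24 windows available for 22 Hox genes, 7 held it, beside 16.3% of 32851 RefSeq windows of the same length. The motif TGATNNAT, a form of the joint HOX and PBX site, was in 4 of the 24 and in 8.85% of all windows, and the homeodomain core TAATTA in 2 and in 5.29%. Neither was in the 3 windows printed. Both strands were searched, and none of these motifs contains another. A match describes letters in the window and was not tested as a binding site.

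Expression covered paralog groups 2 to 6 and 8 and stopped short of the posterior groups. A mean of at least 1 CPM over the 8 libraries was reached by 12 of the 39 genes: Hoxa2, Hoxa3, Hoxb2, Hoxb3, Hoxb4, Hoxb5, Hoxc4, Hoxc5, Hoxc6, Hoxd3, Hoxd4 and Hoxd8. The same 12 genes reached a mean of 1 CPM in the 4 control libraries alone. A further 9 genes had more than 5 counts but means under 1 CPM, among them Hoxa4, Hoxa5, Hoxb6, Hoxb7, Hoxb8, Hoxb9, Hoxc8 and Hoxd9, with means from 0.226 CPM for Hoxb9 to 0.721 CPM for Hoxa4. The other 18 genes were close to or at 0. Among them, 11 had 1 to 5 counts in all 8 libraries together, and 7 had none: Hoxa10, Hoxb1, Hoxc10, Hoxc11, Hoxc12, Hoxd11 and Hoxd13. A count of 0 over all libraries allows up to 3 counts, or 0.022 CPM, counting error only.

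The 12 genes of paralog groups 10 to 13, which pattern the tail, the limbs and the urogenital tract, had 8 counts together. The 4 genes of group 9 had 81 counts. Against these stood 10988 counts for the 4 genes of group 4. Hotair and Evx2, which lie toward the posterior ends of their clusters, had no count, and Evx1 and Mira had 1 count each. Some flanking genes that are not homeobox genes were well expressed, such as Hnrnpa2b1 at 879 to 1420 CPM. Precursors of the cluster microRNAs had 1 count for Mir10a and 5 for Mir10b, in libraries made from polyadenylated RNA that do not capture mature microRNAs.

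**Figure D1:**
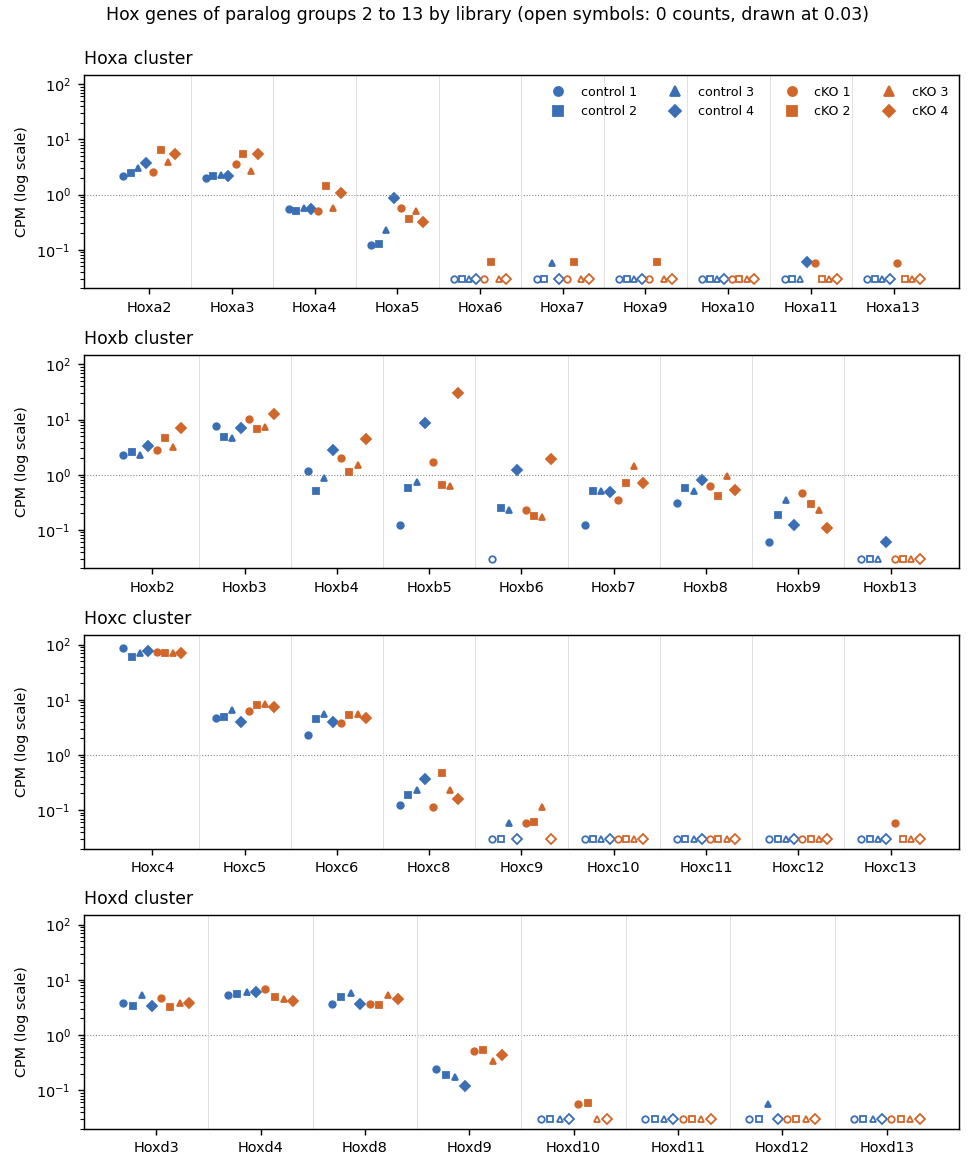
CPM (log scale) of the Hox genes of paralog groups 2 to 13 in the 8 libraries, by cluster and ordered by paralog number; colour shows the group, shape the library number, open symbols libraries without a count (drawn at 0.03), and the dotted line 1 CPM. Hoxc4 lies between 60.7 and 85.6 CPM, genes of paralog groups 10 to 13 lie at or near 0, and Hoxb4, Hoxb5 and Hoxb6 are highest in control 4 and cKO 4.

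Hoxc4, a group 4 gene at the 3′ end of the C cluster (chromosome 15, 103018934 to 103036852, plus strand, GRCm38), dominated the Hox RNA. It had 85.6, 60.7, 71.5 and 77.1 CPM in control 1 to 4 and 72.7, 71.7, 70.7 and 70.5 CPM in cKO 1 to 4. All cKO libraries lay inside the range of the controls. The log2 fold change, cKO over control, was -0.05 with a 95% interval of -0.29 to 0.20 (SE 0.11; adjusted p = 0.909 in edgeR's quasi-likelihood test). Per kilobase of merged exons, its mean level over all libraries was 28.3 CPM, 13.5-fold above the next gene, Hoxa2, at 2.09 CPM per kb. It made up 61.2% of the Hox total per kilobase on average, from 45.3% in cKO 4 to 73.6% in control 1.

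After Hoxc4 came a band of genes at nearly the same level per length. Hoxa2, Hoxc5, Hoxb5, Hoxc6, Hoxd4, Hoxb3 and Hoxd8 had means over the 8 libraries between 1.59 and 2.09 CPM per kb, and their order depended on the length used. In control libraries the values were 1.93 ± 0.135 CPM per kb for Hoxd4, 1.69 ± 0.561 for Hoxc6, 1.63 ± 0.397 for Hoxd8, 1.63 ± 0.356 for Hoxc5, 1.6 ± 0.38 for Hoxa2 and 1.41 ± 0.358 for Hoxb3 (SD, n = 4). Neighbours in this order differed by less than their spread. Hoxb5 stood in this band through 2 libraries alone and had 0.909 ± 1.48 CPM per kb in control ganglia. Hoxb2, Hoxd3, Hoxb4 and Hoxa3 followed at 1.01, 0.935, 0.697 and 0.535 CPM per kb over all libraries. The value of Hoxa3 rises to the tenth place of 12 when the longest transcript, 2591 bases, replaces the 6014 bases of merged exons.

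Summed per kilobase, paralog group 4 held 72.0 ± 4.88% of the Hox total in control and 63.1 ± 8.04% in cKO ganglia (SD, n = 4 each). Groups 2, 3, 5, 6 and 8 each held between 4.41% and 6.22% in controls. Group 5 was at 6.06 ± 2.75% in control and 10.6 ± 7.93% in cKO ganglia, the latter with 22.5% in cKO 4 and 6.43% to 7.11% in the other 3. By cluster, the C genes held 73.6 ± 4.64% of the control total, the D genes 10.7 ± 2.14%, the B genes 9.72 ± 4.63% and the A genes 6.05 ± 0.925%. These shares are parts of 1 sum, so that a rise in 1 group lowers the others. The B cluster reached 16.6% in control 4 and 32.0% in cKO 4, and no more than 11.8% in any other library.

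**Figure D2:**
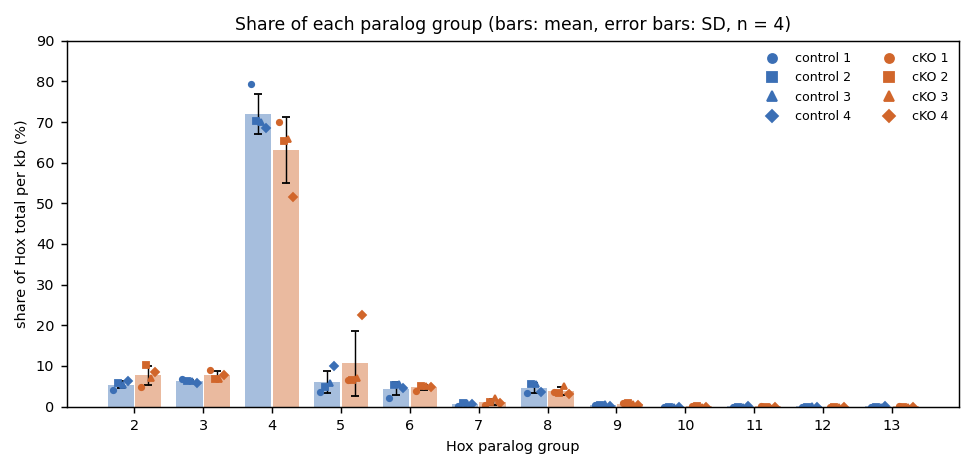
Share of each paralog group from 2 to 13 in the Hox total per kilobase of merged exons; bars are means and error bars SDs of 4 control and 4 cKO libraries, and symbols are libraries. Group 4 holds 51.5% to 79.2% in each library, and group 5 stands apart in cKO 4 at 22.5%.

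Hoxb5 marked 2 libraries. This group 5 gene (chromosome 11, 96303336 to 96306121, plus strand) acts in neural crest and in the vagal region. It had 0.123, 0.564, 0.744 and 8.69 CPM in control 1 to 4, and 1.71, 0.657, 0.624 and 30.8 CPM in cKO 1 to 4. Control 4 was 11.7 times the next control library and cKO 4 was 18 times the next cKO library, from 143 and 571 counts. The SD of its log2 CPM within groups was 2.37, and only 2 of 14592 tested rows had a larger one. The median over tested rows was 0.224.

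Its neighbours Hoxb4 and Hoxb6 peaked in the same libraries. Hoxb4, a group 4 gene, had 1.16, 0.501, 0.859 and 2.80 CPM in control 1 to 4 and 2.00, 1.13, 1.48 and 4.37 CPM in cKO 1 to 4. Both libraries numbered 4 were more than 2 times the next of their group, at 2.40 and 2.18 times. Hoxb6 was at 0 in control 1, at 0.251 and 0.229 CPM in control 2 and 3 and at 1.22 CPM in control 4, and it had 0.229, 0.179 and 0.170 CPM in cKO 1 to 3 and 1.94 CPM in cKO 4. Those peaks rested on 20 and 36 counts.

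Toward the 3′ end of the cluster the pattern was weaker. Hoxb2, a regulator of hindbrain segments, had 2.27, 2.63, 2.29 and 3.34 CPM in control 1 to 4 and 2.80, 4.54, 3.24 and 7.01 CPM in cKO 1 to 4, again highest in both libraries numbered 4. Hoxb3 was highest in cKO 4 but not in control 4: it had 7.60, 4.83, 4.58 and 6.99 CPM in control 1 to 4 and 10.3, 6.75, 7.32 and 12.6 CPM in cKO 1 to 4. Toward the 5′ end it was absent. Hoxb7, Hoxb8 and Hoxb9 had 0.701, 0.539 and 0.108 CPM in cKO 4, below the highest of the other cKO libraries in each case, and Hoxb7 and Hoxb9 were not highest in control 4 either. Of the 12 Hox genes tested, 3 were highest in both control 4 and cKO 4 (Hoxb2, Hoxb4 and Hoxb5), as were 4.39% of all tested rows.

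Genes of sensory neurons, which lie in other ganglia, stood high in the same libraries. Slc17a6, the vesicular glutamate transporter VGLUT2, had 16.7 CPM in control 4 and 50.4 CPM in cKO 4, and 0.123 to 1.83 CPM in the other 6. Scn10a and Scn11a, sodium channel genes of sensory neurons, had 15.0 and 5.29 CPM in control 4 and 38 and 17.6 CPM in cKO 4, with maxima of 4.89 and 1.38 CPM among the other libraries. P2rx3, an ATP receptor gene, had 36.5 and 90.2 CPM there and 12.8 to 34.7 CPM elsewhere, so its level in control 4 was near that of cKO 1. Pou4f1, a transcription factor gene of sensory neurons, reached 2.75 CPM in cKO 4 but 0.426 CPM in control 4. Prrxl1, a marker of somatosensory neurons, did not follow: control 4 had 0.790 CPM and cKO 4 had 0.917 CPM, within the 0.429 to 2.67 CPM of the others.

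Of the 17 listed sensory genes, none was at 0 throughout, and 9 of the 15 with at least 30 counts were highest in both libraries numbered 4. None of the 12 tested passed between cKO and control, where 2.72% of all tested rows did. The summed list was 567 to 644 CPM in control and 704 to 867 CPM in cKO libraries, highest in control 4 and cKO 4, but most of it was Isl1 and Ntrk2, which had similar levels in the other libraries. From control 4 to cKO 4, Hoxb5 was 3.54 times higher, and those 9 sensory genes between 1.70 times (Trpv1) and 8.65 times (Slc17a7). The part of sensory RNA in the level of Hoxb5 was not tested. With bulk RNA, a change in the number of cells of a type cannot be told apart from a change in RNA per cell. Antisense transcription adds a limit: Hoxb5os overlaps Hoxb5 and Hoxb6 on the opposite strand, with strand use in counting not given in the sources used here.

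**Figure D3:**
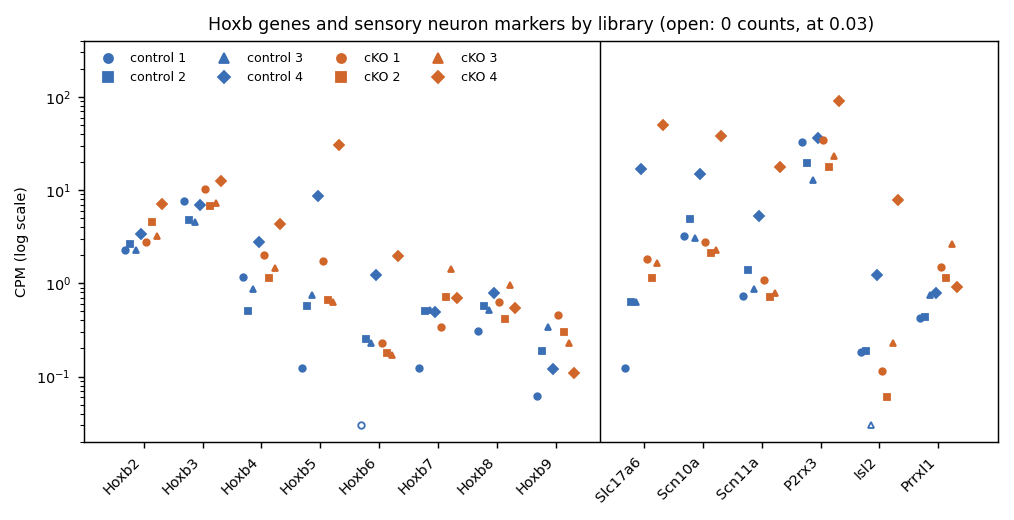
CPM (log scale) of 8 Hoxb genes, left, and 6 sensory neuron markers, right, in each library; colour shows the group, shape the library number and open symbols libraries without a count (drawn at 0.03). The diamonds of control 4 and cKO 4 lie above the other libraries of their group for Hoxb2, Hoxb4, Hoxb5 and Hoxb6 and for Slc17a6, Scn10a, Scn11a, P2rx3 and Isl2, but not for Hoxb7, Hoxb9 or Prrxl1.

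The comparison of cKO with control ganglia asked whether loss of the kinesin KIF1B beta from Dbh-expressing cells changed Hox expression. Only the 12 genes at a mean of 1 CPM or more passed the filter on low counts and were tested, and 0 of them changed at an adjusted p below 0.05 in edgeR's quasi-likelihood test, where 2.72% of all tested rows did (1.6% higher and 1.12% lower). At an unadjusted p below 0.05 there were 5, all with higher means in cKO (Hoxa3, Hoxc5, Hoxb3, Hoxb2 and Hoxa2), beside 16.8% of all tested rows (9.42% higher and 7.42% lower). Limma voom called 0 and DESeq2 called 1, Hoxa3. Of the 12, 8 had a higher and 4 a lower mean in cKO, with a median log2 fold change of 0.61, beside -0.00062 over all tested rows. Without cKO 4 the median of the 13 Hox genes then tested was 0.26. The 4 Hox genes with a lower mean were Hoxc4 and the D genes Hoxd3, Hoxd4 and Hoxd8. Among the cell type lists, the medians were 0.63 for fibroblast, 0.63 for blood vessel, 0.55 for glial and 0.50 for sensory neuron genes. Muscle and cartilage genes had 0.96, macrophage genes 0.20 and sympathetic neuron genes -0.14. Red blood cell and lymphocyte lists, with 2 tested genes each, had 0.53 and 0.36. The part of cell content in the Hox median was not tested.

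**Figure D4:**
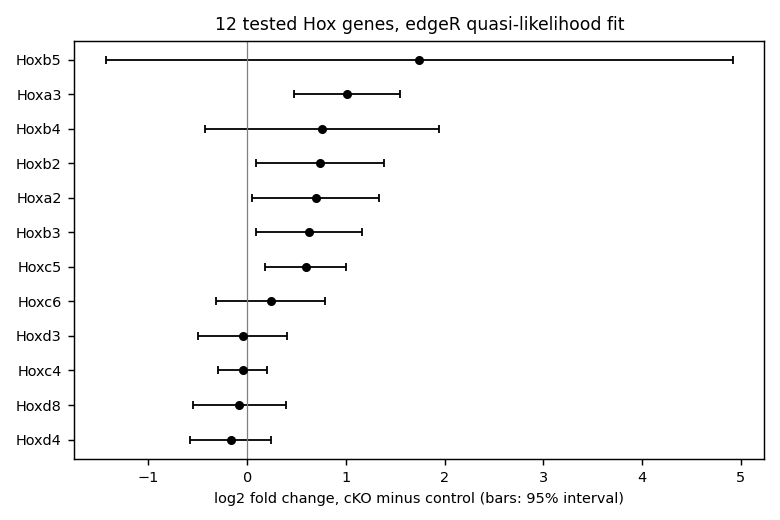
Log2 fold changes of the 12 tested Hox genes, cKO minus control, with 95% intervals from edgeR's quasi-likelihood fit (4 libraries per group). The interval of Hoxc4 runs from -0.29 to 0.20 and that of Hoxb5 from -1.43 to 4.92; intervals that leave out 0 are unadjusted, and no gene passed after adjustment over all tested rows.

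Hoxa3 was the Hox gene nearest to the threshold. This group 3 gene (chromosome 6, 52169062 to 52213336, minus strand) is needed for organs of the pharyngeal arches such as thymus and parathyroid. It had 2.02, 2.13, 2.23 and 2.13 CPM in control 1 to 4, and 3.54, 5.43, 2.72 and 5.50 CPM in cKO 1 to 4. Each cKO library lay above each control library, which held for 1 of the 12 tested Hox genes, while groups did not overlap in 11% of all tested rows (6% with cKO higher). On the log2 scale the difference was 1.01 (SE 0.24, 95% interval 0.47 to 1.55), with an edgeR adjusted p of 0.0549. Over the alternatives its adjusted p ranged from 0.00957 with DESeq2 to 0.269 without both libraries numbered 4, and it was 0.0349 without cKO 3 and 0.0481 with scaling by library size alone. Counts were small, 33 to 39 in control and 48 to 102 in cKO libraries. The gene spans Hoxa4, Hoxa5 and Hoxa6, whose exons it does not share in the annotation. Gm28308 overlaps Hoxa2, Hoxa3 and Hoxa4 on the same strand. Hoxaas2 and Hoxaas3 overlap Hoxa3 on the opposite strand, with strand use in counting not given.

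The A cluster genes next to it were high in the same cKO libraries. Hoxa2, the group 2 gene that patterns the second pharyngeal arch, had 2.15, 2.51, 2.98 and 3.71 CPM in control 1 to 4 and 2.51, 6.39, 3.97 and 5.50 CPM in cKO 1 to 4. Its groups overlapped through cKO 1, and the difference was 0.69 on the log2 scale (SE 0.29; edgeR adjusted p = 0.257). Hoxa4, not tested, had 0.501 to 0.573 CPM in the controls, 0.514 and 0.568 CPM in cKO 1 and cKO 3, and 1.43 and 1.08 CPM in cKO 2 and cKO 4. For Hoxa2, Hoxa3 and Hoxa4 alike, cKO 2 and cKO 4 were the highest of the 8 libraries.

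These libraries were also the highest in the summed fibroblast list. Most of that sum came from Col3a1, Col1a2, Col1a1 and Postn. Libraries cKO 2 and cKO 4 were the highest for each listed gene except Pdgfra, Twist1, Twist2 and Dpt. Pdgfra was highest in cKO 3 (75.1 CPM) and had 59.6 CPM in cKO 4. The summed fibroblast list was 10018 CPM in cKO 1, 12019.8 in cKO 2, 8169 in cKO 3 and 11124 in cKO 4, against 5905, 6280, 7607 and 7024 CPM in control 1 to 4. Of its 12 genes, all tested, 5 rose and none fell in cKO, and none was at 0. Over all tested rows 1.6% rose and 1.12% fell. Blood vessel genes gave the same count, with none at 0 and the highest sum also in cKO 2 (585 CPM). Of 12 genes of satellite glia and Schwann cells, none at 0, 2 rose and none fell, and their sum was 1428 to 1781 CPM in control and 1780.2 to 2009.8 CPM in cKO libraries, highest in cKO 4. Their part in the levels of Hoxa2, Hoxa3 and Hoxa4 was not tested.

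**Figure D5:**
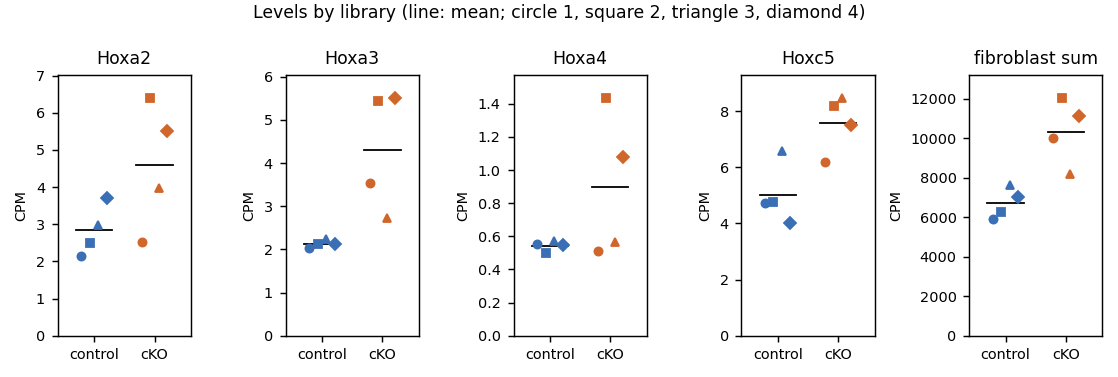
CPM (linear scale from 0) of Hoxa2, Hoxa3, Hoxa4 and Hoxc5 and the summed level of 12 fibroblast genes; symbols are libraries, shaped by library number, and lines are group means (n = 4). Squares and diamonds of cKO 2 and cKO 4 are highest for Hoxa2, Hoxa3, Hoxa4 and the fibroblast sum, and cKO 3 is highest for Hoxc5.

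In the C cluster, Hoxc5 (chromosome 15, 102967443 to 103017429, plus strand), a group 5 gene active around the level of the neck and upper thorax, had 4.72, 4.76, 6.59 and 4.01 CPM in control 1 to 4 and 6.17, 8.18, 8.46 and 7.50 CPM in cKO 1 to 4. Control 3 lay above cKO 1. Its difference on the log2 scale was 0.59 (SE 0.18, 95% interval 0.18 to 1.00) and edgeR's adjusted p was 0.126. The gene overlaps Hoxc6, Hoxc8, Hoxc9 and Hoxc10 on the same strand and shares 166 bases of exon with Hoxc10, which had no count. Hoxc6 had 2.27, 4.51, 5.50 and 4.01 CPM in control 1 to 4 and 3.83, 5.37, 5.45 and 4.59 CPM in cKO 1 to 4, with a log2 fold change of 0.24 (SE 0.25). Control 1 was the lowest, and the value was 0.034 without it and 0.41 without control 3. Hoxc5, Hoxc6 and Hoxd8 were each highest in control 3 among controls and in cKO 3 among cKO libraries, as were 2.11% of all tested rows.

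In the D cluster, Hoxd4 (chromosome 2, 74711929 to 74729160, plus strand) had 5.21, 5.52, 6.07 and 5.96 CPM in control 1 to 4 and 6.86, 4.90, 4.43 and 4.10 CPM in cKO 1 to 4. The highest value was in cKO 1 and the other 3 cKO libraries lay below all controls. Its log2 fold change was -0.17 (SE 0.18, 95% interval -0.57 to 0.24, edgeR adjusted p = 0.745), -0.36 without cKO 1 and -0.077 without cKO 4. For Hoxd3 the log2 fold change was -0.05 (SE 0.20) and for Hoxd8 -0.08 (SE 0.21), with levels from 3.22 to 5.33 and from 3.46 to 5.84 CPM. Both turned without control 3 (0.13 and 0.073) and without cKO 2 (0.030 and 0.0064). Hoxd3 and Hoxd4 share 388 bases of exon on the same strand, so that reads there may have been divided or dropped. Hoxd9, with 44 counts and not tested, had 0.122 to 0.245 CPM in control and 0.341 to 0.537 CPM in cKO libraries, without overlap. With the filter removed its log2 fold change was 1.29 (SE 0.41, edgeR adjusted p = 0.145).

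For each of the tested B genes the fold change was lowest, over the alternatives, without cKO 4. Hoxb3 differed by 0.62 on the log2 scale (SE 0.24) and Hoxb2 by 0.74 (SE 0.29), with edgeR adjusted p of 0.221 and 0.227. Without cKO 4 the differences were 0.44 and 0.42, and without both libraries numbered 4 they were 0.52 and 0.55. That of Hoxb3 was 0.51 without control 3. For Hoxb4 the difference was 0.76 (SE 0.54, edgeR adjusted p = 0.554), 0.21 without cKO 4 and 1.41 without control 4. Without both libraries numbered 4, the difference of Hoxb4 was 0.86 (SE 0.37). For Hoxb5 it was 1.74 with an SE of 1.41 (edgeR adjusted p = 0.62), -1.33 without cKO 4 and 4.12 without control 4. Without both, it was 1.05 (SE 0.61, edgeR adjusted p = 0.607). DESeq2 gave no adjusted p for this gene.

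Beside all tested rows, not matched for level, the Hox genes varied between libraries of a group more on a relative scale, and less relative to counting alone. Both measures can depend on level. Apart from Hoxc4, the tested Hox genes had means of at most 7.62 CPM (Hoxb3). The part of level in these differences was not tested. The edgeR dispersion, which allows for counting, had a median of 0.0557 over the 12 tested Hox genes and of 0.0258 over all tested rows, whose upper quartile was 0.0412. It was 1.65 for Hoxb5, 0.250 for Hoxb4 and 0.0154 for Hoxc4. The squared spread within groups, relative to that of counting alone, had a median of 5.81 over the 12 tested Hox genes and of 8.29 over all tested rows. It was 284 for Hoxb5, 14.8 for Hoxb4, 12.1 for the abundant Hoxc4 and 10.2 for Hoxb3, and under the median of all rows for the other 8, with 2.66 for Hoxd3 the lowest. On the log2 scale, where low counts add spread, the median SD was 0.366 for the Hox genes, above the upper quartile of 0.325 over all tested rows, and 0.148 for Hoxc4. Without both libraries numbered 4, the SD of Hoxb5 was 0.868 and that of Hoxb4 0.462.

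The genes that work with Hox proteins or set their expression mostly did not pass the test, as with all tested rows, of which 2.72% passed. None of 9 cofactor genes passed (median log2 fold change 0.017). Meis2 was at 5.05 ± 0.489 and 8.86 ± 2.54 CPM without overlap of the groups, a difference of 0.81 on the log2 scale (SE 0.21; edgeR adjusted p = 0.0704), which passed without cKO 4 (adjusted p = 0.0296) and with DESeq2 (0.0142). Pbx3 differed by 0.36 (SE 0.15; edgeR adjusted p = 0.252). None of 23 Polycomb and trithorax genes passed (median 0.096). The Polycomb subunit genes Bmi1 and Ezh2 had log2 differences of 0.29 for Bmi1 (SE 0.10) and 0.42 for Ezh2 (SE 0.15), with edgeR adjusted p of 0.171 and 0.186. With the replicate block Ezh2 passed (edgeR adjusted p = 0.0421).

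Of 16 tested genes of retinoic acid signalling and of the Cdx and Gdf11 axis, 1 rose and 15 did not pass. Their median log2 fold change was 0.34, beside -0.00062 over all tested rows. Over all tested rows 1.6% rose. Rxrg, a retinoid X receptor, went from 12.7 ± 1.65 to 21.9 ± 1.61 CPM (SD, n = 4), or 0.78 on the log2 scale (SE 0.13; edgeR adjusted p = 0.0128). Cdx1 and Cdx4, which drive posterior Hox genes in the embryo, had no count. Of 14 tested genes among cluster neighbours, cluster noncoding genes and related homeobox genes, 1 rose: Nfe2l3, a basic leucine zipper factor, went from 16.9 ± 2.72 to 32.3 ± 5.35 CPM (log2 fold change 0.93, SE 0.16, adjusted p = 0.015). The groups did not overlap for either gene. Both calls were lost without control 2 (adjusted p = 0.0577 for Rxrg and 0.073 for Nfe2l3), control 4 (0.0616 and 0.0533), cKO 3 (0.0542 and 0.0548) or both libraries numbered 4 (0.111 and 0.0643). Over the alternatives the log2 fold changes ranged from 0.72 to 0.84 for Rxrg and from 0.86 to 1.09 for Nfe2l3.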

How the data were processed

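The authors deposited raw counts of reads, 1 row per symbol. The submitters' processing notes name STAR and mm10, with versions, counting program, annotation and strand use not given in the sources used here. Columns were matched to libraries by sample title, and each library was counted as a replicate, with 1 library per animal. Libraries of a group differed by a chi-square per gene of 7.72 to 55.5, which cannot tell separate animals from separate preparations. The test was edgeR's quasi-likelihood test (4.0.16, R 4.3.3) with TMM scaling, filterByExpr, robust fitting and no covariate, over 14592 rows, and p-values were adjusted after Benjamini and Hochberg (threshold 0.05). SEs are the absolute log2 fold change over the square root of F. Log2 CPM used a prior count of 2. The spread relative to counting is the sum of squared deviations from the expected count over that count, per degree of freedom. Lengths and coordinates come from GENCODE vM21 (GRCm38, also called mm10), which matched all 39 Hox rows; promoters come from RefSeq on GRCm38.p6.

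Members and gene lists were chosen with earlier results of these data known. Named Hox genes are those that pass, the 5 with the smallest p, the highest per length in each cluster and the 5 with the largest spread, all in every library. From the other lists they are those that pass or the 2 with the smallest p, and Kif1b. Some genes are not reported here. Other genes, such as Hoxa4, Hoxb6, Hoxd9 and P2rx2, were named after their values were seen. Alternatives were DESeq2 size factors, library size alone, other filters, DESeq2 1.42.0, limma voom (3.58.1), a block for the library number and each library left out. In a simulation of cKO against control over 14592 genes, 20.9% of 1.5-fold, 76.1% of 2-fold and 97.0% of 4-fold changes were recovered. The changed genes were drawn from all tested rows, with a median dispersion of 0.0258, against 0.0557 for the tested Hox genes. These shares are therefore not recovery rates for the Hox genes. Figures were drawn with matplotlib 3.10.9.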

Additional observations from a re-analysis of the deposited data

Results flagged for a closer look

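In groups of 4 libraries, a value was taken as far from the others when its gap to the nearest exceeded Dixon's 95% critical value as a share of the range. Chance marks about 1 in 20 groups of independent, normally distributed values. These groups are CPM, some from few counts, of genes in the same libraries, so that rate need not hold here. Among 42 groups of Hox genes with at least 30 counts in all, 5 were marked. Hoxb5 was at 8.69 CPM in control 4, where the nearest control had 0.744 CPM, and at 30.8 CPM in cKO 4, where the nearest had 1.71 CPM. Hoxb6 was at 1.94 CPM in cKO 4, where the nearest had 0.229 CPM. Hoxa5 was at 0.851 CPM in control 4, with 0.229 CPM in the nearest, a peak of 14 counts that cKO 4 did not share (0.324 CPM). Hoxb7 was lowest in control 1, at 0.123 CPM or 2 counts, with 0.486 CPM in the nearest. The sums of all 9 cell type lists gave 18 groups, of which 3 were marked. These were the muscle and cartilage genes in cKO 1, at 223 CPM with 30.8 CPM in the nearest, and the red blood cell genes in control 1, at 45 CPM with 9.91 CPM in the nearest, and in cKO 1, at 77.2 CPM with 9.12 CPM in the nearest.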

How the results depend on the processing

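The number of genes changed, 397 of 14592 with 234 higher, was 988 with DESeq2, 687 with the replicate block and 65 without both libraries numbered 4, an alternative added after seeing the data. With 1 library left out it ranged from 74 (control 4) to 514 (control 1); leaving out control 2 gave 79, control 3 249, cKO 2 147 and cKO 3 137. Library size alone gave 343 higher and 145 lower. The count of Hox genes changed, 0, became 1 with library size alone, with DESeq2 and without cKO 3 (Hoxa3 each time), was 2 with the replicate block (Hoxa3 and Hoxb3, adjusted p = 0.0493 and 0.0468), and ranged from 0 to 1 with 1 library left out. The numbers in the titles were not taken to pair the libraries, as no pairing is stated. Deviations correlated at 0.725, 0.352, -0.302 and 0.265 for numbers 1 to 4, and at -0.627 to 0.404 for libraries of different numbers. With the replicate block the SE of Hoxb5 went from 1.41 to 0.43 and that of Hoxb4 from 0.54 to 0.21. Structure shared by library number was not tested. Detected Hox genes fell from 12 to 5 at a mean of 5 CPM. The direction turned for Hoxc4 with library size alone (0.0037), without control 1 (0.0275; range -0.129 to 0.0275 with 1 library left out) and without both libraries numbered 1 (0.0242), and for Hoxb5 without cKO 4 (-1.33; range -1.33 to 4.12), and Hoxd3 and Hoxd8 turned without control 3 or cKO 2; the cause was not tested. Of 168 values of the 10 named Hox genes under alternatives, 159 kept direction and side of the threshold, 5 newly passed and 4 turned. Genes under 1 CPM rest on few counts, and small differences there were not detectable at this depth.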

Other observations

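Rows that followed the libraries numbered 4 as Hoxb5 did were sought after its values were seen, and are given with no test. In 14 of 14592 tested rows (0.0959%), both control 4 and cKO 4 were at least 2 times the highest of the other 6 libraries. Hoxb5 ranked second among them, after Slc17a6, and was the only Hox gene. The others included the sodium channel genes Scn11a and Scn10a, the ATP receptor gene P2rx2 (10.9 and 27.7 CPM, at most 3.6 CPM elsewhere), the cholecystokinin receptor gene Cckar (2.01 and 4.86 CPM, at most 0.914 CPM elsewhere), the adenosine receptor gene Adora1 (6.63 and 14.2 CPM, at most 3.04 CPM elsewhere) and the netrin receptor gene Unc5d (3.53 and 9.71 CPM, at most 1.76 CPM elsewhere).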
